A study of Homo sapiens with 7 samples.

Results

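Histone genes encode the proteins around which DNA is wrapped in chromatin. They were taken from the genes measured in the human ovarian carcinoma line SKOV3 as those whose current symbol begins with a canonical or variant histone name, leaving out pseudogenes and a long non-coding RNA. Only transcript clusters that the platform annotation ties to exactly 1 symbol were used, which gave 68 histone genes of 17958 genes tested. Of these, 58 are replication-dependent genes (6 H1, 14 H2A, 16 H2B, 9 H3 and 13 H4) and 10 are variant genes. RefSeq for GRCh38.p14 lists 82 protein-coding genes under the same names. The other 14 were not members, 13 of them because their clusters carry several symbols.

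Each of the 7 samples was a lentivirally transduced, puromycin-selected SKOV3 line measured on an Affymetrix Human Gene 1.1 ST array. Knockdown of CtBP2 was represented by 2 clones (the CtBP2 clones), knockdown of CtBP1 by 3 clones (the CtBP1-labelled clones), and the scramble control, which carries a lentivirus as well, by 2 samples (the scramble cells). CtBP1 and CtBP2 are transcriptional co-repressors that recruit histone-modifying enzymes, and the comparisons ask which genes differ when either is depleted. The labels number the knockdown samples as clones, but nothing in them says that the 2 scramble samples came from cultures grown apart, so the spread between those 2, which enters every p-value, may be technical.

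Replication-dependent histone genes lie mainly in clusters and are transcribed in S phase, when new chromatin is assembled. Their mRNAs end in a stem-loop bound by SLBP instead of a poly(A) tail, and they are degraded when DNA synthesis stops. Variant histone genes are scattered, and most give polyadenylated mRNA through the whole cell cycle. The labels name a Whole Transcript labelling assay on total RNA. Among the replication-dependent members, 50 lie on chromosome 6, 7 on chromosome 1 and 1 on chromosome 12. Histone paralogs are near-identical in sequence, so a cluster can take signal from a sister gene. H4C14 and H4C15 had identical values on every array and are 1 measurement under 2 names, which leaves 57 distinct replication-dependent profiles.

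The promoters of the genes on which the results turn show the elements that set histone types apart. RefSeq promoters of GRCh38.p14 were matched for 63 of the 68 genes, and the 250 bases before the gene start were searched on both strands. The first pair are H2B genes whose differences had opposite signs, H2BC3 at chr6:26043714-26043963 and H2BC12 at chr6:27146859-27147108. They are followed by H4C13 at chr6:27873535-27873784, the linker histone gene H1-5 at chr6:27867589-27867838, and the variant gene H2AZ1 at chr4:99950276-99950525. All 5 lie on the minus strand and are written 5′ to 3′ towards the gene. Capitals mark the octamer ATTTGCAT, the CCAAT box, TATAAA as the usual TATA box, the histone H4 element written GGTCCG and the H1 box written AAACACA, or their reverse complements, and neighbouring matches can run together or overlap, as in TTTATAAA of H2BC12.
H2BC3: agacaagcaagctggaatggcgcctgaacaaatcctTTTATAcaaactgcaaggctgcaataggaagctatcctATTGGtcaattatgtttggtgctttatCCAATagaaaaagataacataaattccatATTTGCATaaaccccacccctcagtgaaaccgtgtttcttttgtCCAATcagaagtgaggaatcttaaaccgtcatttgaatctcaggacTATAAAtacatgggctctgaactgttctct
H2BC12: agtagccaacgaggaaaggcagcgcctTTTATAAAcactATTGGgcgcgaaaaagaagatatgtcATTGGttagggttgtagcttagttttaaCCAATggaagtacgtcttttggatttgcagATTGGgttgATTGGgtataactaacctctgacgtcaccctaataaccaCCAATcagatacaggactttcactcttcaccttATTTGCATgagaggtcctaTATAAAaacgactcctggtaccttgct
H4C13: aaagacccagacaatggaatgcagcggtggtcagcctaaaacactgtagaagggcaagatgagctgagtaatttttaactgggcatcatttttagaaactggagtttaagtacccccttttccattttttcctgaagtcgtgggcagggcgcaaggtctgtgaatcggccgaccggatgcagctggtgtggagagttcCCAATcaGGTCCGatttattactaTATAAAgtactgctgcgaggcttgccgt
H1-5: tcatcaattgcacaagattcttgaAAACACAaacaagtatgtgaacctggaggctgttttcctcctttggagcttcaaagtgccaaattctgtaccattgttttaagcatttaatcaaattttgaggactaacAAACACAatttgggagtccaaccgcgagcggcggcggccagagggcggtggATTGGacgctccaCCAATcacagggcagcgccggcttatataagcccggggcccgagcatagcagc
H2AZ1: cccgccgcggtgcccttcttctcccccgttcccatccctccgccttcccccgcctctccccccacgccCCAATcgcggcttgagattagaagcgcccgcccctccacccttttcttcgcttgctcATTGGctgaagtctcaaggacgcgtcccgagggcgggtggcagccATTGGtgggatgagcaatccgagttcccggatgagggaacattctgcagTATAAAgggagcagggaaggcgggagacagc
Both H2B promoters hold the octamer, whose first letter lies 120 bases before the start of H2BC3 and 46 bases before that of H2BC12. In H4C13, GGTCCG follows a CCAAT box and precedes TATAAA. H1-5 holds the H1 box at 2 places, and H2AZ1 holds CCAAT letters and a TATA box but no octamer.

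The same letters sorted the replication-dependent members by histone type, and the counts by type that follow are for their 53 promoters. The octamer was present in 13 of 16 H2B and 10 of 13 H2A promoters and in none of the 24 H1, H3 and H4 promoters of this class. Of all 27305 promoters of the table, 1.66% held it. GGTCCG was present in 10 of 11 H4 promoters, against 9.33% of all promoters, and AAACACA in 6 of 6 H1 promoters, against 4.95%. CCAAT was present in every replication-dependent H1, H2A, H2B and H3 promoter and in 3 of 11 H4 promoters, against 33% of all promoters. Variant promoters did not sort in this way. Of these 10, the octamer was present in 1, that of H3-3B, GGTCCG in 2, AAACACA in 1 and CCAAT in 7. TATAAA was found in 66% of replication-dependent promoters, in 40% of variant promoters and in 11.1% of all promoters. The letters TTTCGCGC, which resemble a binding site of E2F factors, were found in 20.8% of replication-dependent promoters, in 0 of 10 variant promoters and in 0.469% of all promoters. The searched windows of 9 head-to-head pairs of 1 H2A and 1 H2B gene overlap, with 215 to 248 bases between their starts. A match in the shared stretch was counted for both genes, so the H2A and H2B counts are not independent. A match is a description of the sequence and does not show that a factor binds there.

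The targeted genes and the arrays were looked at first. The CTBP2 signal (log2) was 4.64 and 4.22 in the CtBP2 clones, against 6.25, 6.31 and 6.27 in the CtBP1-labelled clones and 5.70 and 6.14 in scramble cells. CTBP1 had 5.11, 6.13 and 6.13 in the CtBP1-labelled clones, against 5.69 and 6.37 in scramble cells, a signal that does not separate these groups, so these samples are named by their label throughout. Per the labels, knockdown was checked by western blot, and the arrays do not measure protein. Scramble control 1 stood apart, with correlations over all genes of 0.926 to 0.941 with the other arrays, which correlated with each other at 0.971 to 0.993. As a check of the cell line, 8 of 10 epithelial carcinoma markers had a mean signal above the median of all genes, and 0 of 13 leukocyte, fibroblast and endothelial markers did. Precision is set by how few arrays there are.

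The CtBP2 clones were set against the CtBP1-labelled clones, a comparison whose means do not involve the scramble cells. Replication-dependent histone genes had higher signals in the CtBP2 clones in 48 of 58 cases, with a median log2 difference of 0.43, against a median of -0.01 over all genes. An unadjusted p under 0.05 (limma) was reached by 15 of the 58 in the higher direction, where 5.31% of all genes reached it, and by 1 in the lower direction, where 2.46% did. No gene of any kind passed an adjusted p of 0.05, so none of these differences is a call. Groups did not overlap for 27 of the 58 that were higher, against 15.8% of all genes, and for 4 that were lower, against 16.2%. Variant histone genes had a median of 0.06, with 6 of 10 higher and 0 of 10 under an unadjusted p of 0.05. The difference between the classes was not tested. Single replication-dependent genes ranged from -2.18 to 2.57, and single variant genes from -0.28 to 0.56.

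H2BC3, which encodes a core histone H2B, differed most. Its log2 signals were 7.22 and 6.81 in the CtBP2 clones, against 4.19, 4.34 and 4.82 in the CtBP1-labelled clones and 4.35 and 4.84 in scramble cells. Both CtBP2 clones lay well above all 5 others, which overlapped among themselves. The log2 difference between the knockdowns was 2.57 ± 0.26 (SE of the limma fit, 2 arrays against 3), or 5.93-fold, with an adjusted p of 0.129, the smallest in the comparison and shared with CTBP2. The difference of H2BC3 from scramble was 2.42, with an adjusted p of 0.180 (limma). With array weights, H2BC3, H4C3, H4C13, H4C1, H2AC12, H2AC13 and H2BC8 passed an adjusted p of 0.05 as 7 of 68 histone genes. In the higher direction 1.24% of all genes passed. In the lower direction 0 histone genes passed, where 0.273% of all genes did. The weights were 2.66 for each CtBP2 clone, 1.07 to 1.46 for the CtBP1-labelled clones and 0.27 for each scramble control, so these calls lean on the 2 CtBP2 clones.

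The core histone H4 genes H4C3 and H4C13 followed. H4C3 had 9.34 and 9.09 in the CtBP2 clones, against 7.08, 7.16 and 7.86 in the CtBP1-labelled clones and 7.84 and 8.03 in scramble cells. H4C13 had 8.58 and 8.42 in the CtBP2 clones, against 7.05, 6.84 and 6.89 in the CtBP1-labelled clones and 6.41 and 7.17 in scramble cells. In both genes the CtBP2 clones did not overlap with any other array. The knockdowns differed by 1.85 ± 0.26 for H4C3 (adjusted p = 0.190 by limma) and by 1.58 ± 0.23 for H4C13 (adjusted p = 0.202). The several-symbol cluster of H4C11 and H4C12, which is no member, had 7.25 and 7.22 in the CtBP2 clones, against 5.52, 5.62 and 6.42 in the CtBP1-labelled clones. The several-symbol signal of H4C14 and H4C15 was dim and overlapped. It was 2.99 and 3.13 in the CtBP2 clones, against 3.03, 2.67 and 3.84 in the CtBP1-labelled clones.

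Several core histone H2A genes were also highest in the CtBP2 clones. Between the knockdowns, groups did not overlap for 7 of 14 H2A genes that were higher, against 15.8% of all genes. They did not overlap for 1 that was lower, against 16.2%. H2AC4 had 4.79 and 5.32 in the CtBP2 clones, against 3.15, 3.65 and 3.92 in the CtBP1-labelled clones and 3.01 and 3.61 in scramble cells. H2AC13 had 6.74 and 6.79 in the CtBP2 clones, against 5.57, 5.42 and 6.0 in the CtBP1-labelled clones and 5.10 and 5.24 in scramble cells. In each gene the CtBP2 clones held the 2 highest signals. A several-symbol cluster that names H2AC13 together with H3C10 overlapped between the knockdowns. It had 6.28 and 6.16 in the CtBP2 clones, against 5.43, 5.66 and 6.33 in the CtBP1-labelled clones. The knockdowns differed by 1.48 ± 0.31 for H2AC4 and by 1.10 ± 0.19 for H2AC13, and H2AC12 and H2AC6 differed by 0.80 ± 0.16 and 0.98 ± 0.23 (adjusted p from 0.225 to 0.353 by limma). In all, 13 of 14 H2A genes were higher in the CtBP2 clones than in the CtBP1-labelled clones, with a median of 0.63.

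The other types had positive medians as well, at 0.49 for 9 H3 genes, 0.43 for 13 H4 genes, 0.39 for 6 H1 genes and 0.10 for 16 H2B genes. Among the H2B genes, H2BC8 differed by 1.15 ± 0.20 and had 4.61 and 4.95 in the CtBP2 clones, against 3.46, 3.79 and 3.64 in the CtBP1-labelled clones. Of the H4 genes, H4C2 had 6.99 and 6.87 in the CtBP2 clones, against 5.54, 6.46 and 5.71 in the CtBP1-labelled clones. H4C1 had 4.34 and 4.37 in the CtBP2 clones, against 3.39, 3.84 and 3.51 in the CtBP1-labelled clones. The separation between those groups was complete in these 3 genes. Counting all members by type, an unadjusted p under 0.05 in the higher direction was reached by 6 H2A, 4 H4, 3 H2B and 2 H1 genes and by 0 of 9 H3 genes, where 5.31% of all genes reached it, and in the lower direction by 1 H2B gene, where 2.46% did. Among the H3 genes, H3C11 had 10.23 and 10.09 in the CtBP2 clones, against 9.41, 8.75 and 9.99 in the CtBP1-labelled clones, the third of which came close to the CtBP2 clones.

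H2BC12 went the other way and had the most negative difference of the family. Its signals were 5.27 and 4.01 in the CtBP2 clones, against 7.84, 5.47 and 7.14 in the CtBP1-labelled clones and 5.57 and 6.54 in scramble cells. The CtBP2 clones were the 2 lowest, although the first lay only just below the second CtBP1-labelled clone. The difference of -2.18 ± 0.77 had an unadjusted p of 0.0301 and an adjusted p of 0.556. A several-symbol cluster that names H2BC12 together with H2BC12L and H2BC6 had 8.58 and 8.70 in the CtBP2 clones, against 8.32, 7.28 and 8.64 in the CtBP1-labelled clones, so the clusters that name this gene disagreed in direction. H2BC13, H3C8 and H3C6 were also lower on average, by -0.46 ± 0.35, -0.40 ± 0.39 and -0.32 ± 0.17, with unadjusted p values of 0.239, 0.344 and 0.104.

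**Figure D1:**
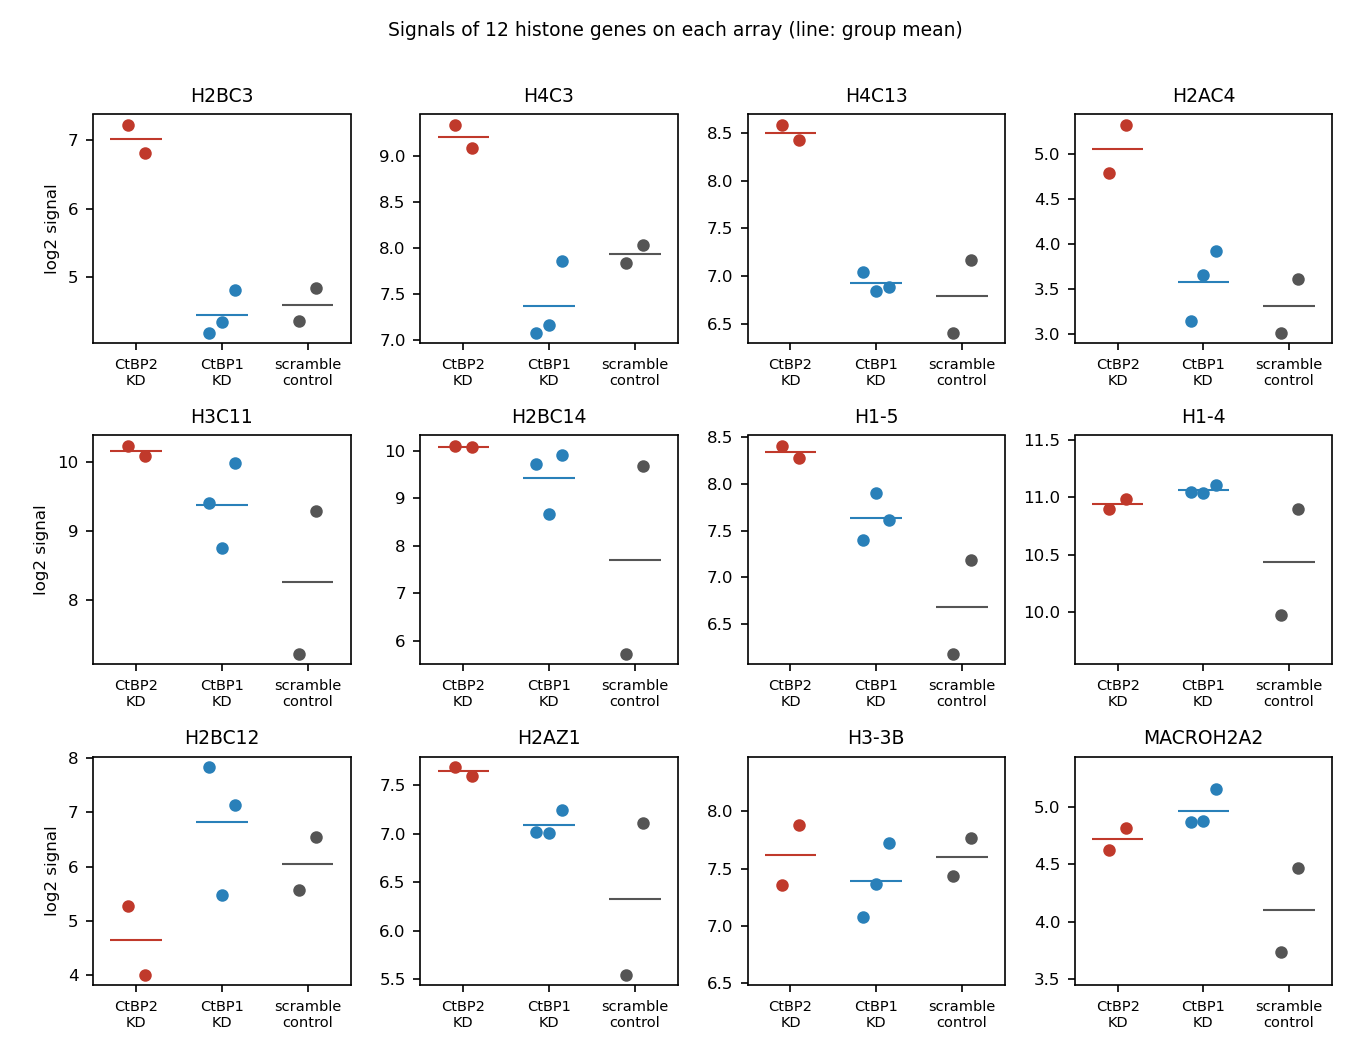
Log2 signals (y axis, scaled per panel) of 12 histone genes on each array, with CtBP2 knockdown (KD), CtBP1-labelled clones and scramble control from left to right; points are arrays and lines are group means. H2BC3, H4C3, H4C13 and H2AC4 show both CtBP2 clones above all others, H2BC12 shows them lowest, and H3C11, H2BC14, H1-5, H1-4 and H2AZ1 show scramble control 1 lowest.

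How far a histone gene differed went with its signal, taken as the mean over all 7 arrays. That mean includes the compared arrays, so the split that follows is not independent of the differences. Of the 58 replication-dependent genes, 40 had a mean signal above the median of all genes, a split used to set dim clusters apart. Their median difference between the knockdowns was 0.67, and all 15 genes with a higher signal at an unadjusted p under 0.05 were among these 40, against 9.11% of all genes above the same median; the 1 lower gene was too, against 3.32%. The 18 dimmer genes had a median of 0.07. The median over all genes above the split was 0.06. Against scramble cells the 40 brighter genes had medians of 1.06 in the CtBP2 clones and 0.45 in the CtBP1-labelled clones, or 0.71 and 0.10 without scramble control 1. Over all genes above the split these medians were 0.23 and 0.17, or -0.01 and -0.08 without scramble control 1. Of these 40, 22 were higher in the CtBP2 clones at an unadjusted p under 0.05, against 12.7% of all genes above the split, and 0 were lower, against 2.63%. In the CtBP1-labelled clones 4 were higher, against 5.17%, and 0 lower, against 2.02%. H1-6, H2BC1 and H2AC1, which are mainly testis genes, were dim on every array, and their differences were 0.07, 0.00 and -0.16. H1-1, listed with these as a testis gene, went another way. Over the main fit and all alternatives its difference between the knockdowns ran from 0.26 to 0.43. Against scramble it ran from 0.52 to 1.43 in the CtBP2 clones and from 0.17 to 1.07 in the CtBP1-labelled clones. The 6 genes for which polyadenylated transcripts have been reported (H1-2, H2BC4, H2BC5, H2AC6, H2BC12 and H2BC21) had a median of 0.47, and the other 52 had 0.43.

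Some H2A and H2B genes are transcribed away from each other from neighbouring starts. Of the members, 9 pairs of 1 H2A and 1 H2B gene lay head to head, with 215 to 248 bases between their starts. Both genes of the pair had a higher mean in the CtBP2 clones than in the CtBP1-labelled clones in 6 of 9 pairs. H2BC4 and H2AC6 differed by 0.85 and 0.98, and H2BC8 and H2AC8 by 1.15 and 0.57. In the pair of H2BC13 and H2AC13 the differences were -0.46 and 1.10. The 7 genes on chromosome 1 had a median of 0.43, and the 50 on chromosome 6 had 0.46.

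**Figure D2:**
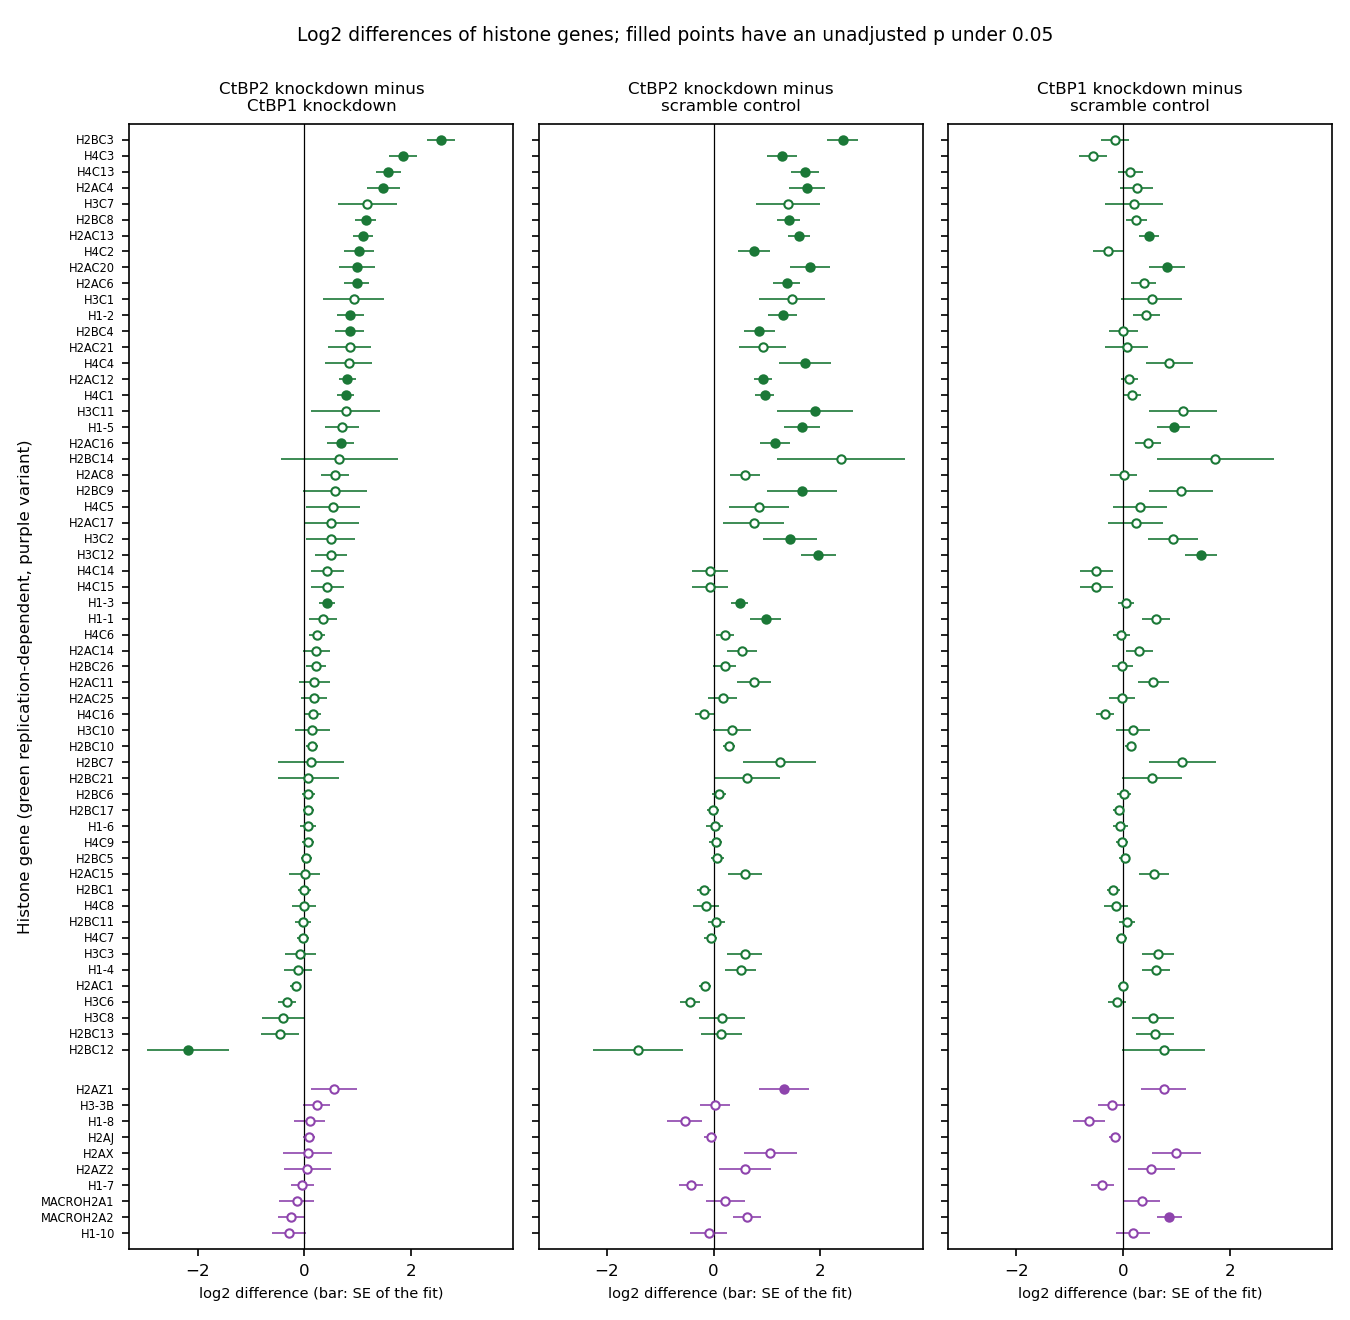
Log2 differences of the 68 histone genes (x axis; bars are SEs of the limma fit) between CtBP2 knockdown and the CtBP1-labelled clones, and of each from scramble control, with replication-dependent genes above variant genes. Most replication-dependent points lie right of 0 in the panels for CtBP2 knockdown, with H2BC3 at 2.57 and H2BC12 at -2.18 in the first panel.

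Against scramble control, the CtBP2 clones again had higher replication-dependent signals. The median log2 difference was 0.69, against -0.02 over all genes, and 48 of 58 genes were higher. Genes above the median signal had a median of 0.23, and 71.5% of them were higher. An unadjusted p under 0.05 was reached by 22 of the 58 in the higher direction, where 7.19% of all genes reached it, and by 0 in the lower direction, where 2.98% did. Groups did not overlap for 38 genes that were higher, against 19.3% of all genes, and for 4 that were lower, against 21.7%. The adjusted p passed 0.05 for 1 gene of the array, or 0.00557%, which is no histone gene. Part of the size rested on scramble control 1: without it the median was 0.31, with 47 of 58 higher. An unadjusted p under 0.05 was then reached by 17 in the higher direction, where 5.07% of all genes reached it, and by 1 in the lower direction, where 5.3% did. Without scramble control 2, which leaves the outlying array as the only control, the median was 0.94. This comparison and that of the knockdowns share the CtBP2 clones.

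H2BC3, H4C3, H4C13, H2AC4, H2AC13 and H2BC8 lay above both scramble controls in the CtBP2 clones, and further genes did as well. H3C12, a core histone H3 gene, had 5.80 and 5.57 in the CtBP2 clones, against 3.29 and 4.16 in scramble cells, and its difference of 1.96 ± 0.33 was 1.53 without scramble control 1. H2AC20 had 7.13 and 7.33 in the CtBP2 clones, against 5.38 and 5.47 in scramble cells, a difference of 1.81 ± 0.37. The linker histone gene H1-2 had 7.22 and 7.26 in the CtBP2 clones, against 5.70 and 6.20 in scramble cells. The adjusted p values of these genes lay between 0.236 and 0.291 (limma). H2AC13 differed from scramble by 1.60 ± 0.21, or 3.03-fold, with an adjusted p of 0.180.

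Some large differences rested on scramble control 1. H2BC14, an H2B gene, had 10.10 and 10.07 in the CtBP2 clones, 9.72, 8.66 and 9.90 in the CtBP1-labelled clones, and 5.73 and 9.67 in scramble cells. Its difference from scramble of 2.39 ± 1.21 became 0.42 without scramble control 1. H3C11 had 7.22 and 9.29 in scramble cells, and its difference of 1.90 ± 0.70 became 0.87 without scramble control 1. Of the 58 replication-dependent genes, 30 had their lowest signal on scramble control 1, which also held the lowest signal of 5796 of all 17958 genes. Scramble control 1 minus scramble control 2 was -0.35 at the median of the replication-dependent genes, -0.54 at that of the variant genes and -0.54 at that of all genes above the median signal.

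The CtBP1-labelled clones differed less from scramble control. Their median over the replication-dependent genes was 0.20, against -0.00 over all genes, with 41 of 58 higher. Genes above the median signal had a median of 0.17, and 69.2% of them were higher. Groups did not overlap for 9 of the 58 that were higher, against 6.76% of all genes, and for 1 that was lower, against 7.59%. An unadjusted p under 0.05 was reached by 4 of the 58 in the higher direction, where 2.87% of all genes reached it, and by 0 in the lower direction, where 1.92% did. No gene passed an adjusted p of 0.05, with 516 higher and 345 lower at an unadjusted p under 0.05 and a smallest adjusted p of 0.734. Without scramble control 1 the median was 0.03, with 31 of 58 higher. An unadjusted p under 0.05 was then reached by 1 in the higher direction, where 2.26% of all genes reached it, and by 1 in the lower direction, where 5.42% did. Without scramble control 2 the median was 0.44.

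The 4 genes were H3C12, H1-5, H2AC13 and H2AC20. H3C12 had 5.21, 4.87 and 5.48 in the CtBP1-labelled clones, against 3.29 and 4.16 in scramble cells, a difference of 1.47 ± 0.30 that was 1.04 without scramble control 1. H1-5 had 7.40, 7.90 and 7.61 in the CtBP1-labelled clones, against 6.18 and 7.18 in scramble cells, a difference of 0.95 ± 0.31 that was 0.46 without scramble control 1. H2AC13 and H2AC20 differed by 0.50 ± 0.19 and 0.82 ± 0.34, and by 0.33 and 0.49 without the third CtBP1-labelled clone. H3C12, H1-5 and H2AC20 were highest in the CtBP2 clones, and the CtBP1-labelled clones lay between those and the controls. H4C3 was lower than in scramble cells, by -0.57 ± 0.26 with an unadjusted p of 0.0725. By type, the medians were 0.56 for H3, 0.53 for H1, 0.29 for H2A, 0.11 for H2B and -0.03 for H4 genes.

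**Figure D3:**
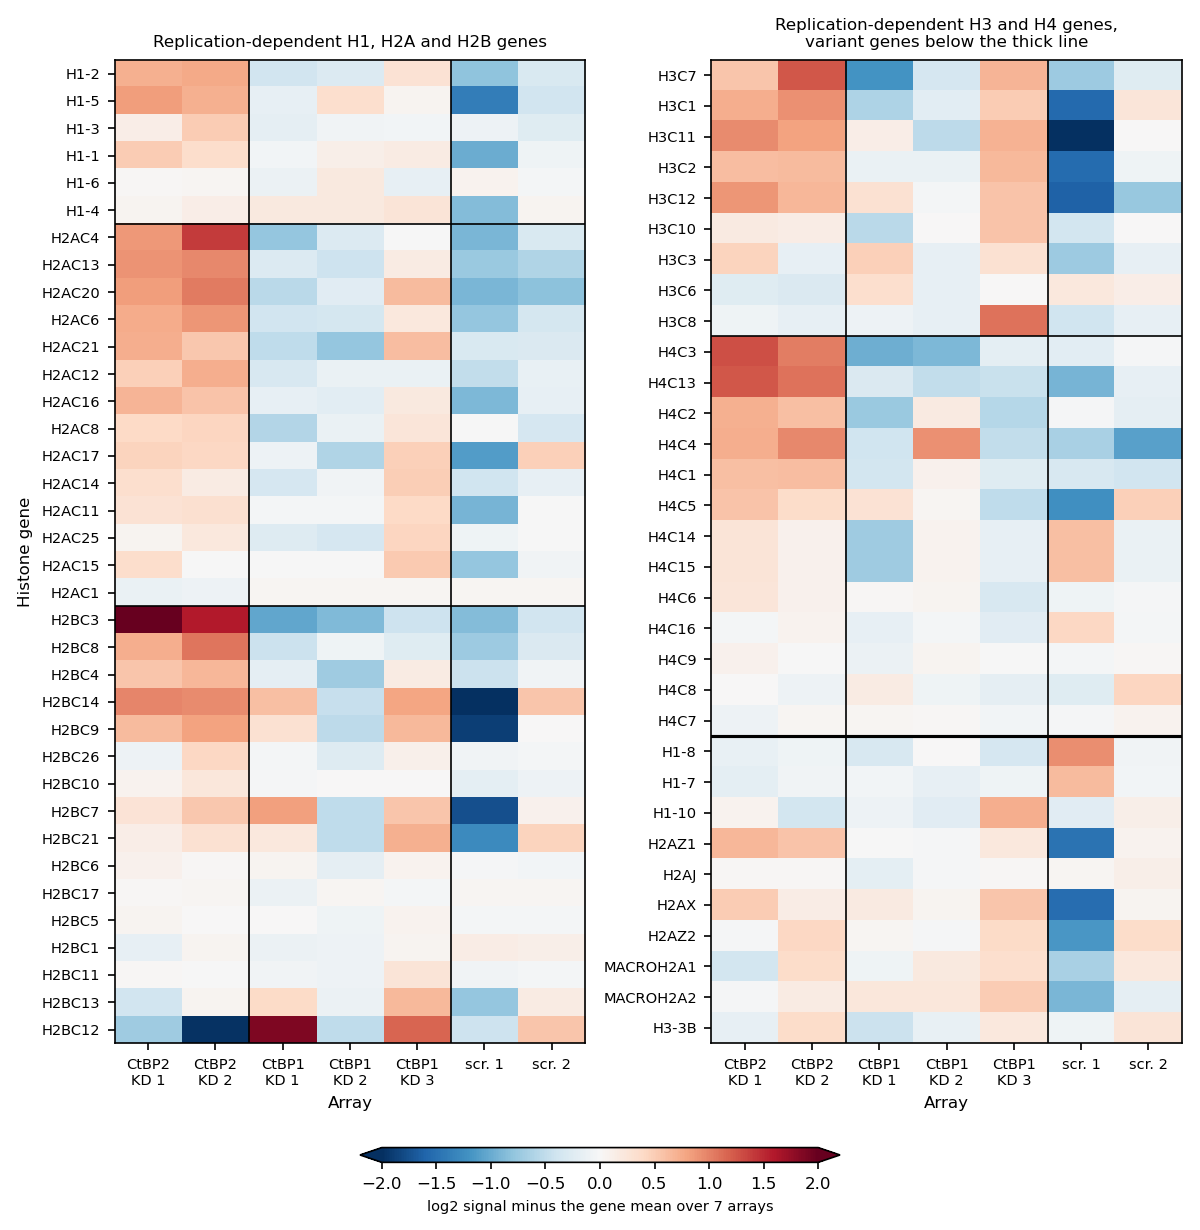
Log2 signal minus the gene's mean over the 7 arrays (colour, capped at -2 and 2) for each of the 68 histone genes (rows) on each array (columns); scr. is scramble control and KD knockdown. The CtBP2 knockdown columns are mostly red for H2A and H1 genes and for the upper H2B, H3 and H4 rows, and scramble control 1 is the bluest column.

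Variant histone genes followed no common direction. H2AZ1 and H2AZ2 encode H2A.Z, which is placed at promoters. H2AZ1 had 7.69 and 7.60 in the CtBP2 clones, 7.02, 7.01 and 7.24 in the CtBP1-labelled clones, and 5.55 and 7.11 in scramble cells. It differed between the knockdowns by 0.56 ± 0.43, with an unadjusted p of 0.242, and from scramble by 1.32 ± 0.47 in the CtBP2 knockdown, or 0.54 without scramble control 1. H2AZ2 had 6.86 and 7.29 in the CtBP2 clones, against 6.93, 6.86 and 7.27 in the CtBP1-labelled clones and 5.72 and 7.25 in scramble cells, with overlap in every comparison.

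H2AX, whose phosphorylated form marks DNA breaks, had 6.46 and 6.10 in the CtBP2 clones, 6.12, 6.01 and 6.50 in the CtBP1-labelled clones, and 4.42 and 6.01 in scramble cells. Without scramble control 1 its differences from scramble were 0.27 for CtBP2 knockdown and 0.20 for the CtBP1-labelled clones. H3-3B, a source of the replication-independent histone H3.3, had 7.36 and 7.88 in the CtBP2 clones, 7.08, 7.37 and 7.72 in the CtBP1-labelled clones, and 7.43 and 7.77 in scramble cells, so the 3 groups overlapped. The other H3.3 gene, H3-3A, was seen only through a cluster shared with the pseudogene H3P6, which had 8.15 and 8.59 in the CtBP2 clones, 6.94, 7.26 and 7.95 in the CtBP1-labelled clones, and 7.33 and 7.36 in scramble cells.

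MACROH2A2, which encodes a macroH2A linked to silent chromatin, was the variant gene with the smallest p for the CtBP1-labelled clones. It had 4.87, 4.88 and 5.16 on those arrays, against 3.73 and 4.47 in scramble cells. The difference was 0.87 ± 0.24, with an unadjusted p of 0.0106 and an adjusted p of 0.734, and was 0.50 without scramble control 1. On the CtBP2 clones it had 4.62 and 4.82, above both controls and below all 3 CtBP1-labelled clones. MACROH2A1 had 7.18 and 7.91 in the CtBP2 clones, 7.46, 7.74 and 7.89 in the CtBP1-labelled clones, and 6.90 and 7.77 in scramble cells.

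H1-8 and H1-7, germ-cell linker histones, had the most negative differences from scramble among the variant genes. H1-8 had 3.27 and 3.33 in the CtBP2 clones, 3.10, 3.42 and 3.08 in the CtBP1-labelled clones, and 4.34 and 3.34 in scramble cells. H1-7 ran from 2.97 to 3.11 on 6 arrays and had 3.80 on scramble control 1, so both genes were highest on that array. The differences from scramble were -0.54 ± 0.33 for H1-8 in the CtBP2 clones and -0.64 ± 0.30 in the CtBP1-labelled clones (unadjusted p of 0.147 and 0.0740), and became -0.045 and -0.14 without scramble control 1. Those of H1-7 were -0.42 and -0.38, and became -0.075 and -0.039. H1-10 had 4.87 and 4.43 in the CtBP2 clones, against 4.70, 4.58 and 5.52 in the CtBP1-labelled clones and 4.57 and 4.91 in scramble cells. H2AJ, an H2A variant, was dim, between 2.04 and 2.35 on all arrays. Against scramble, the median over the 10 variant genes was 0.12 for CtBP2 knockdown and 0.28 for the CtBP1-labelled clones, and these became -0.09 and -0.06 without scramble control 1.

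Histone supply depends on regulators that were measured on the same arrays. CCNE1, the cyclin whose kinase activates the histone transcription factor NPAT, had 5.89 and 5.23 in the CtBP2 clones, against 4.36, 4.45 and 4.45 in the CtBP1-labelled clones and 4.11 and 4.23 in scramble cells. The knockdowns differed by 1.14 ± 0.20 (adjusted p = 0.245 by limma). NPAT itself had 6.19 and 5.84 in the CtBP2 clones, against 6.03, 5.43 and 5.88 in the CtBP1-labelled clones and 5.32 and 5.96 in scramble cells. SLBP, which binds the histone stem-loop, had 6.48 and 6.37 in the CtBP2 clones, against 5.78, 5.98 and 5.95 in the CtBP1-labelled clones and 5.82 and 5.95 in scramble cells. CCNE1 and SLBP were thus highest in both CtBP2 clones, while NPAT overlapped. SLBP differed between the knockdowns by 0.52 ± 0.12, with an adjusted p of 0.333.

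The lists around these genes were described by counts. Of 8 measured genes for histone transcription, 1 was higher in the CtBP2 knockdown than in the CtBP1-labelled clones at an unadjusted p under 0.05, with a list median of 0.24, where 5.31% of all genes were. Of 13 genes for 3′ end processing and decay, 1 was, with a median of 0.30. Of 17 replication chaperones, 2 were, with a median of 0.17, and these were NAP1L1 at 0.48 ± 0.11 and NAP1L4 at 0.42 ± 0.17, both nucleosome assembly proteins. Of 13 chaperones and remodellers for variants, 0 were, with a median of -0.05. None of these lists held a gene that was lower at an unadjusted p under 0.05, where 2.46% of all genes were. In the order given, 8 of 8, 12 of 13, 17 of 17 and 13 of 13 list genes had a mean signal above the median of all genes. Of all genes above that median, 9.11% were higher at that p and 3.32% lower. Against scramble cells, the counts in the CtBP2 clones were 1 of 8 for transcription, 2 of 13 for 3′ end processing and decay, 1 of 17 for replication chaperones and 0 of 13 for variant chaperones, all higher, where 7.19% of all genes and 12.7% of genes above the median signal were. The counts in the CtBP1-labelled clones were 1, 0, 1 and 1 of the same lists, all higher, where 2.87% of all genes and 5.17% of genes above the median signal were. Against scramble, HIRA, an H3.3 chaperone, differed by 0.79 ± 0.28 in the CtBP1-labelled clones, with 4.78, 4.77 and 4.94 there and 3.55 and 4.53 in scramble cells, and by 0.30 without scramble control 1.

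S-phase genes were also highest in the CtBP2 clones. After subtracting the 7-array mean of each gene, the median over 19 S-phase genes was 0.47 and 0.43 in the CtBP2 clones, -0.12, -0.04 and 0.03 in the CtBP1-labelled clones, and -0.87 and 0.04 in scramble cells. The same median over the replication-dependent genes was 0.38 and 0.39 in the CtBP2 clones, -0.12, -0.12 and 0.16 in the CtBP1-labelled clones, and -0.46 and -0.06 in scramble cells. Both lists were thus highest in the CtBP2 clones and lowest on scramble control 1. The knockdowns differed by a median of 0.51 over the S-phase genes, of which 5 of 19 were higher at an unadjusted p under 0.05. All 19 had a mean signal above the median of all genes, and 9.11% of all genes above that median were higher at that p. The 5 included RRM2, a subunit of ribonucleotide reductase, at 1.20 ± 0.39 and the helicase genes MCM6 at 0.71 ± 0.24 and MCM2 at 0.69 ± 0.25. Against scramble cells the S-phase median was 0.82 in the CtBP2 clones, with 10 of 19 higher at an unadjusted p under 0.05, against 12.7% of all genes above the median, and 0.33 in the CtBP1-labelled clones, with 1 higher, against 5.17%. These medians were 0.47 and -0.07 without scramble control 1. Over 16 mitosis genes the per-array medians were 0.38 and 0.43 in the CtBP2 clones, 0.17, -0.07 and 0.26 in the CtBP1-labelled clones, and -1.82 and 0.58 in scramble cells, so scramble control 2 was highest there. The part of S-phase content in the histone differences was not tested, and in bulk RNA more cells in S phase and more histone mRNA per cell cannot be told apart.

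**Figure D4:**
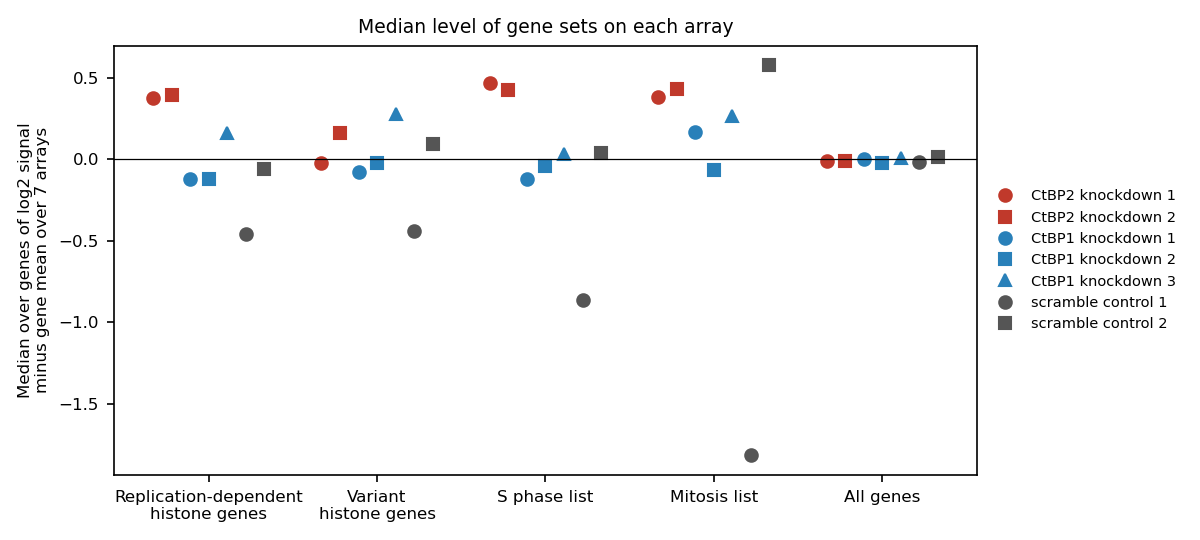
Median over genes of the log2 signal minus the gene's mean over the 7 arrays (y axis) for replication-dependent and variant histone genes, the S-phase and mitosis lists and all genes, with 1 point per array. Replication-dependent histone and S-phase genes are highest in both CtBP2 clones, scramble control 1 is lowest in the 4 gene sets, and all arrays lie near 0 for all genes.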

How the data were processed

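RNA of 7 SKOV3 samples was measured on Affymetrix Human Gene 1.1 ST arrays. The authors deposited log2 signals for transcript clusters. Per the submitters' processing notes these come from RMA in Affymetrix Expression Console. The build is not given in the sources used here. Of 33297 clusters, 19181 carry 1 symbol, 2055 several, and 12061 are not listed. Symbols were updated through RefSeq (GRCh38.p14) for 17930 of 17958 genes. The cluster with the highest mean was used per gene, and every histone member had only 1.

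The means of the 3 groups were estimated by limma 3.58.1 (R 4.3.3, lmFit and eBayes) from all 7 arrays, with 4 residual degrees of freedom. P-values are two-sided, and adjusted p values are Benjamini-Hochberg values over all genes within each of 3 comparisons, with a threshold of 0.05. The fit was tested on simulated data. An identical value on 2 or more arrays occurred in 20 members and in 7180 of all genes, and within a group this can understate the spread.

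Members and lists were chosen with earlier results of these data known. Genes to name were all variant genes and, per comparison, the 10 replication-dependent genes with the smallest p, the 4 highest and 4 lowest differences, the brightest gene of each type, CTBP1, CTBP2 and up to 4 genes of each list with the smallest p. Not all of them are named above. H2AC15, H2BC7, H3C2 and H3C3 were left out, with differences of 0.58, 1.12, 0.94 and 0.66 between the CtBP1-labelled clones and scramble. List genes such as E2F1, CCNE2, GINS2 and CDK1 were left out as well. H2AC8, H2BC4, H1-2, NPAT and the several-symbol clusters were added after their values were seen. Alternatives were renewed quantile normalization, median centring, a filter on dim genes, the mean of clusters, trended or robust eBayes, only the groups compared, array weights, a replicate block and leaving out each array.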

Additional observations from a re-analysis of the deposited data

How the results depend on the processing

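No histone gene was called in the main fit, whose values are those reported above unless an alternative is named. Only 3 of the alternatives called any. With quantile normalization repeated, 7 genes differed between the knockdowns at an adjusted p under 0.05, 2 of them histone genes (H2BC3 and H4C13, both at 0.0471). With array weights 272 genes did (1.24% of all genes higher and 0.273% lower), 7 of them histone genes, all higher in CtBP2 knockdown: H2AC12, H2AC13, H2BC3, H2BC8, H4C1, H4C13 and H4C3. The adjusted p of these genes reached 1 under other alternatives. For CtBP2 knockdown against scramble, 0 genes were called with robust eBayes, only the groups compared, array weights or the replicate block, instead of 1. With only genes above the median signal, the replication-dependent median was 0.67 between the knockdowns, 1.06 for CtBP2 against scramble and 0.45 for the CtBP1-labelled clones, and the variant median for CtBP2 knockdown against scramble was 0.40. Over all genes of that filter the medians were 0.06, 0.23 and 0.17 in the same order of comparisons. Leaving out each array gave replication-dependent medians of 0.29 to 0.46 between the knockdowns, 0.31 to 0.94 for CtBP2 against scramble and 0.035 to 0.44 for the CtBP1-labelled clones. The variant medians were -0.048 to 0.11, -0.085 to 0.43 and -0.056 to 0.58. Calls numbered 0, 0 to 3952 and 0 to 3262, and every call came without scramble control 2, which left the outlying array as the lone control, assumed to vary like the other groups; 27 and 17 of the calls were histone genes. The cause of these changes was not tested. The calls without scramble control 2 are out of 68 histone genes and 17958 genes tested, and went both ways in each set. Among the histone calls, H1-7 and H1-8 were lower in both comparisons and H4C16 in the CtBP1-labelled clones, and the others were higher. With 1 array as the control, these counts cannot show an excess of histone genes, and none is claimed. Deviations from the group means did not go together in samples with the same replicate number (correlations from -0.35 to 0.10). In a group of 2 arrays these deviations mirror each other, so the check cannot decide whether the numbers pair the samples. The replicate block gave 0 calls in each comparison and replication-dependent medians of 0.45, 0.69 and 0.09. Directions turned for some uncalled differences. In CtBP1-labelled clones compared with scramble, H1-10 became -0.051 with quantile normalization and -0.10 with the block (-0.10 to 0.37 leaving out arrays), and H2AC21 -0.060 and -0.34 (-0.34 to 0.35). Leaving out arrays gave -0.018 to 1.54 for H2AZ1, -0.23 to 1.30 for H2AZ2, -0.24 to 3.70 for H2BC14 and -0.073 to 0.80 for MACROH2A1. For CtBP2 knockdown against scramble, quantile normalization gave 0.086 for H2AJ, -0.21 for H3-3B and -0.017 for MACROH2A1, and median centring -0.038 for H3-3B. Leaving out arrays gave -0.31 to 0.13 for H1-10, -0.17 to 1.35 for H2AZ2, -0.24 to 0.28 for H3-3B, -0.40 to 0.051 for H4C16 and -0.22 to 0.65 for MACROH2A1. Between the knockdowns, quantile normalization gave -0.024 for H2AX and -0.025 for H2AZ2, and the block 0.011 for H1-10 and 0.0074 for H3C8. Leaving out arrays gave -0.50 to 0.011 for H1-10, -0.10 to 0.027 for H1-7, -0.11 to 0.25 for H2AX, -0.16 to 0.27 for H2AZ2, -0.032 to 0.50 for H3-3B, -0.62 to 0.0074 for H3C8 and -0.51 to 0.22 for MACROH2A1.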
